A study of Mus musculus with 6 samples.

Results

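The genes of glucose uptake and glycolysis were examined in CD4+ T cells of the gut epithelium and the spleen of old and young mice. The set holds 10 genes: the glucose transporters Slc2a1 and Slc2a3, the hexokinases Hk1 and Hk2, and the glycolytic enzyme genes Pfkp, Aldoa, Gapdh, Pgk1, Eno1 and Ldha. Members were taken as the probes whose gene symbol in the array design is one of these names. This gave 9 probes for 9 genes out of 23473 probes and 19321 named genes, and no probe carried the symbol Eno1, which is therefore not analysed here. All 9 probes were above the blank spots on all 6 arrays, and each gene is measured by 1 spot per array. The probe of Ldha is listed in the design under a non-coding transcript record of the gene.

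Glucose enters T cells through facilitative transporters and is trapped inside the cell when hexokinase phosphorylates it. Phosphofructokinase then commits the sugar to glycolysis, aldolase splits it, and Gapdh, Pgk1 and enolase carry the products towards pyruvate, which lactate dehydrogenase A can turn into lactate. Resting T cells burn little glucose, whereas activated effector T cells take up much more of it and release lactate, a switch that is known to depend on mTOR, Myc, Hif1a and Irf4.

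The cells came from male C57BL/6 mice aged 89 weeks (old) or 5 weeks (young) per the labels, while the methods state an age for the old mice that is somewhat under this. Small intestinal intraepithelial lymphocytes (IEL), the T cells that lie between gut epithelial cells, and spleen (SP) cells were sorted as CD3+CD4+ at over 98% purity. 4 arrays hold old IEL, young IEL, old SP and young SP CD4+ T cells. A further 2 arrays hold old IEL fractions labelled cd27cd28 and others, whose gates are not given and which the labels mark as unused in the study. The cells of a group came from 4 to 6 mice, and the sources do not say if RNA of several mice was mixed. Each group has 1 array, so no p-value or spread between animals can be given, and every difference below is one between single arrays. In sorted bulk RNA, fewer cells of a type and less RNA per cell cannot be told apart.

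Signals are given on a linear scale on which the median detected probe of each array has 25, and differences on the log2 scale as old minus young or IEL minus SP. A gene counted as over 2-fold higher or lower only when its brighter signal was over 100, the thresholds of the study. Between 72.2% and 85.1% of probes were detected per array. Repeated control spots had a mean log2 SD of 0.127, which makes 0.180 for a difference between arrays and covers spot error alone. The sort markers Cd4 and Cd3e were detected on every array, Cd4 at 892 on the cd27cd28 array, 664 on others, 431 in old IEL, 472 in young IEL, 535 in old SP and 361 in young SP. Cd8b1 had 610 on the cd27cd28 array, 554 on others, 231 in old IEL, 643 in young IEL, 321 in old SP and 465 in young SP. The brighter of 2 Cd8a probes had 16232 in old IEL, 1564 in young IEL, 29.0 in old SP and 17.8 in young SP. The part of cells with these transcripts in the member differences was not tested. Summed signals of 12 epithelial marker genes were 523 on the cd27cd28 array, 2407 on others, 381 in old IEL, 724 in young IEL, 251 in old SP and 211 in young SP. Of these genes 11, 12, 11, 11, 9 and 7 were detected on those arrays in that order, and Sis, Krt20 and Reg3b were below detection on both SP arrays. Summed signals of 14 proliferation genes were 2791, 4199, 2008, 4620, 1801 and 1680 in the same order.

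The promoters of Hk2, Pfkp and Slc2a1, which differed over 2-fold in a comparison below, and the first of the pair listed for Ldha are shown because glycolytic genes are textbook targets of Hif1 and Myc, whose cores were searched in them. RefSeq windows on GRCm38.p6, from 250 bases before to 50 bases after the start site, were found for 9 of the 10 members, Slc2a3 being without one. The letters searched were ACGTG and GCGTG on both strands, the core of the Hif1 element, of which ACGTG overlaps the E-box CACGTG bound by Myc. Capitals mark each match on either strand, and each sequence runs 5′ to 3′ on the strand of its gene.
Hk2 (chr6:82774405-82774704, minus strand): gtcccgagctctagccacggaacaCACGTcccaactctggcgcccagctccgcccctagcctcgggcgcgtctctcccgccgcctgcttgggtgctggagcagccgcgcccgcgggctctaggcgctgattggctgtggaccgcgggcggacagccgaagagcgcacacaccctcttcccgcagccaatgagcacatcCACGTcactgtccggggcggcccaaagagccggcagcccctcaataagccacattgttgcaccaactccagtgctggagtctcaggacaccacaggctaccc
Pfkp (chr13:6648722-6649021, minus strand): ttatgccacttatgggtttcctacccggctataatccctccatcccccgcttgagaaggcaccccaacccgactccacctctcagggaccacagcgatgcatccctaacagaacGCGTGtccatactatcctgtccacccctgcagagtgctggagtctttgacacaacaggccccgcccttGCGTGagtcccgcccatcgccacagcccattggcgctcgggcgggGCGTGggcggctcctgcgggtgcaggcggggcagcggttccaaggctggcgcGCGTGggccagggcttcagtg
Slc2a1 (chr4:119108495-119108794, plus strand): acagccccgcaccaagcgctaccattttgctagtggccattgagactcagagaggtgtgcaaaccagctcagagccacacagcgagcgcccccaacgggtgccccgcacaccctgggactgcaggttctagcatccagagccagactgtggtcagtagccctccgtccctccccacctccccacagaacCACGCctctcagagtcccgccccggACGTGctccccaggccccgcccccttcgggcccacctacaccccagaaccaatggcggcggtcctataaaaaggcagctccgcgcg
Ldha (chr7:46845554-46845853, plus strand): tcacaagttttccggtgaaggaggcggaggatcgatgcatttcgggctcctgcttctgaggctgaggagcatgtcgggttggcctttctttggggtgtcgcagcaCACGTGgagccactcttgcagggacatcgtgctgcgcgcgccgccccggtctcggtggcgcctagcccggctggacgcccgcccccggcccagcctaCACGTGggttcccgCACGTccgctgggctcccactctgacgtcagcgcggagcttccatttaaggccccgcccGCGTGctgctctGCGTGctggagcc
There were 2 marked stretches in the Hk2 window, both ACGTG, and 4 in that of Pfkp, all GCGTG. The Slc2a1 window held 1 of each, and that of Ldha 5 stretches, of which 2 were the full E-box CACGTG. Ldha was not over 2-fold apart in any comparison below, and its window that is not shown held 2 matches, both GCGTG, and no CACGTG. Over all genes of the set, each of the 9 members with a window held at least 1 match in at least 1 of its windows (15 in all), where 46.7% of 27025 genes with a window did. ACGTG was found for 7 of 9 members, against 21.8% of all genes, and GCGTG for 6 of 9, against 35.2%. A gene counts here if any of its windows matches, and genes differ in their number of windows. By window, ACGTG was in 8 of 15 member windows, against 19.6% of all, and GCGTG in 9 of 15, against 32.4%. CACGTG was found for Ldha alone, against 8.09% of all genes. Both cores are rich in G and C, and the median GC content was 65.3% in the member windows, against 52.7% in all 32851 windows. A match of these letters describes the window and says nothing of binding.

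**Figure D1:**
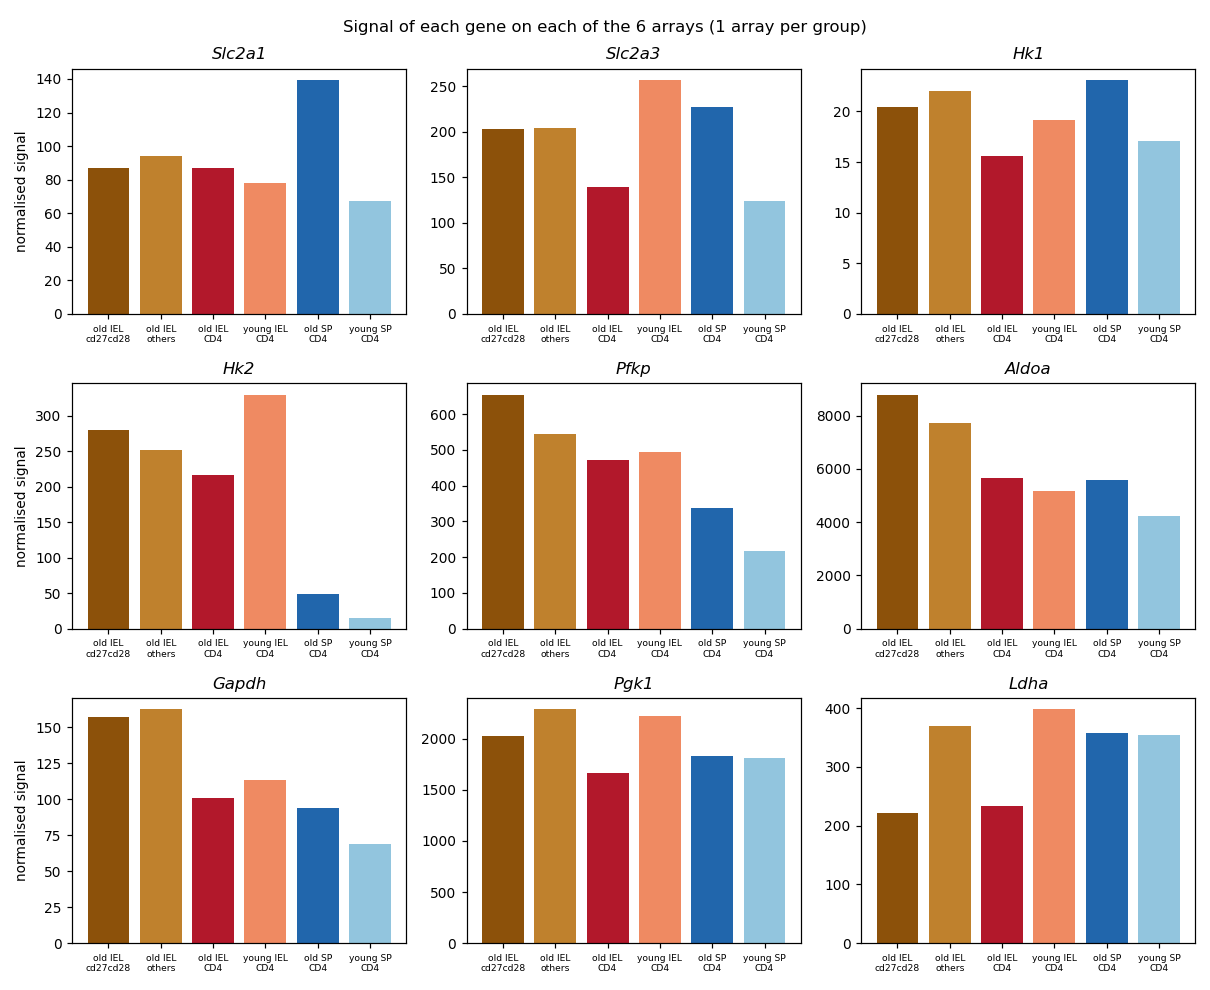
Normalised signal (linear axes from 0, each panel with its own scale) of the 9 measured genes on the 6 arrays, 1 bar per array. Hk2 stands at 216 or above on every IEL array and at 48.3 or below on both SP arrays, while Pgk1 and Hk1 vary little.

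Hexokinase 2, the inducible hexokinase of activated and dividing cells, varied most among the members. Its signal was 279.8 on the cd27cd28 array, 251.9 on others, 216.0 in old IEL and 329.2 in young IEL, against 48.3 in old SP and 15.0 in young SP. All 4 IEL arrays were above both SP arrays, and the IEL arrays differed from each other by less than 2-fold. The lowest of these signals, that of young SP, was still 12.3 SD of the blank spots above them. Hk1, the hexokinase that most tissues use constitutively, was dim and even, with 20.4 on the cd27cd28 array, 22.0 on others, 15.6 in old IEL, 19.2 in young IEL, 23.1 in old SP and 17.1 in young SP.

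The transporters followed neither each other nor Hk2. Slc2a3, which encodes the high-affinity transporter GLUT3, had 203.0 on the cd27cd28 array, 204.6 on others, 140.0 in old IEL, 256.7 in young IEL, 226.9 in old SP and 123.7 in young SP. Its brightest arrays were young IEL and old SP, the dimmest young SP and old IEL. Slc2a1, which encodes GLUT1, the transporter that T cells bring to the surface on activation, had 86.7 on the cd27cd28 array, 93.8 on others, 87.0 in old IEL, 77.8 in young IEL, 139.2 in old SP and 67.3 in young SP. Old SP stood above the other arrays, which lay between 67.3 and 93.8.

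Pfkp, the platelet-type phosphofructokinase, had 653.9 on the cd27cd28 array, 545.6 on others, 472.8 in old IEL, 494.1 in young IEL, 338.0 in old SP and 216.8 in young SP. As for Hk2, every IEL array was above both SP arrays and young SP was the lowest, but the steps were smaller. Aldoa, the aldolase of muscle and most other cells, had 8784 on the cd27cd28 array, 7739 on others, 5657 in old IEL, 5160 in young IEL, 5581 in old SP and 4216 in young SP. The 2 fractions of old IEL were brightest, and old IEL and old SP differed by 0.02 on the log2 scale.

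Gapdh, the enzyme that makes NADH in glycolysis, had 157.0 on the cd27cd28 array, 162.3 on others, 100.6 in old IEL, 113.2 in young IEL, 93.6 in old SP and 68.6 in young SP. The gene has many near-identical copies in the mouse genome that a probe may not tell apart. A probe named for the copy Gapdh-ps15 gave 477 on the cd27cd28 array, 494 on others, 306 in old IEL, 341 in young IEL, 305 in old SP and 190 in young SP, and thus ranked the arrays in the same order as Gapdh. Aldoart1, a retrotransposed relative of Aldoa, was likewise detected on all arrays, with 312 in old IEL, 244 in young IEL, 468 in old SP and 266 in young SP. Cross-hybridisation between such probes was not tested.

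Pgk1, which makes the first ATP of glycolysis, had 2026 on the cd27cd28 array, 2287 on others, 1668 in old IEL, 2226 in young IEL, 1830 in old SP and 1808 in young SP. Its range, like that of Hk1, was under 1.5-fold. Ldha, lactate dehydrogenase A, had 221.1 on the cd27cd28 array, 370.1 on others, 234.2 in old IEL, 397.9 in young IEL, 357.3 in old SP and 354.2 in young SP. It was low on the cd27cd28 and old IEL arrays and nearly even on the other 4.

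Old SP CD4+ T cells were set against young ones to see how these genes vary with age in a lymphoid organ. All 9 members had a difference above 0, with a median of 0.45 (0.52 for the 6 with a brighter signal over 100). The median of all 4476 genes with such a signal was 0.05, and 7 of the 9 members lay above it. Of the 6 members over that signal, 1 was over 2-fold higher and 0 lower, where 4.31% of all genes were higher and 0.76% lower. The 1 gene was Slc2a1, with 139.2 in old SP and 67.3 in young SP (2.07-fold, 1.05 on the log2 scale), a difference exceeded by 3.95% of genes. It was only just past 2-fold, and quantile normalization gave 0.95. Hk2 had the largest difference of the members, 1.68, or 3.21-fold, but both its signals were under 100, so it was not counted. Slc2a3 followed with 0.88, Pfkp with 0.64, Gapdh with 0.45, Hk1 with 0.44 and Aldoa with 0.40. Pgk1 and Ldha differed by 0.02 and 0.01, less than the spot error, and quantile normalization turned both to below 0.

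Among the other genes of the pathway, 0 of 6 further transporter and glycolysis genes with a signal over 100 and 0 of 5 genes of lactate and pyruvate handling were over 2-fold apart between old and young SP. The medians of these lists over all genes detected on both arrays were 0.71 and −0.08. Pgam1, the mutase between Pgk1 and enolase, had 4812 in old SP and 2912 in young SP, and Tpi1, which interconverts the triose phosphates, 373 in old SP and 240.1 in young SP. Both differences were under 2-fold. Regulators of glycolysis had 3 of 12 genes over 2-fold higher and 0 lower in old SP. Egln3, an oxygen sensor that marks Hif proteins for destruction, had 117.6 in old SP and 17.5 in young SP (2.75). Irf4, a transcription factor that scales with T cell receptor strength, had 374 in old SP and 118 in young SP (1.66), and Hif1a itself 327 in old SP and 140 in young SP (1.23). The Hif1a difference was −0.53 with normexp, a correction for the local background of each spot, which also left Egln3 (0.60) and Irf4 (0.37) under 2-fold. Pentose phosphate genes had 0 of 5 past 2-fold and a median of 0.07. Summed epithelial markers were 251 in old SP and 211 in young SP and summed proliferation genes 1801 in old SP and 1680 in young SP.

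**Figure D2:**
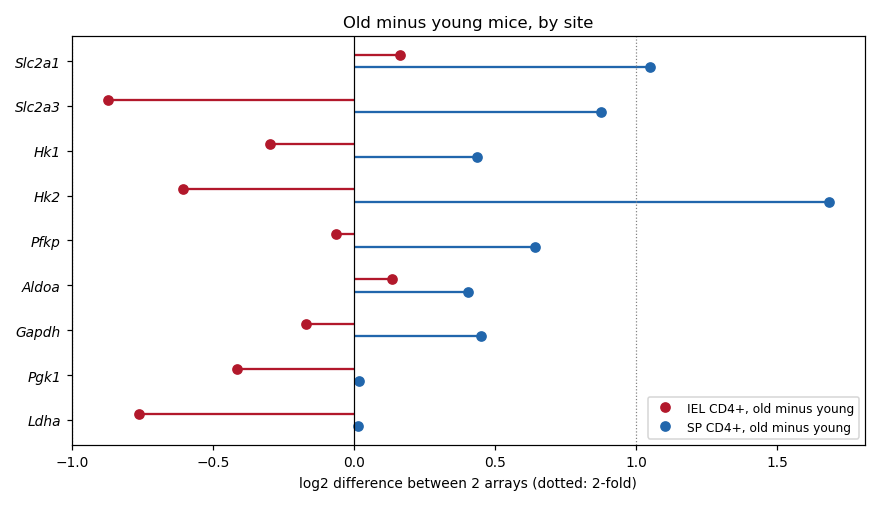
Log2 difference of old minus young mice for each gene (x axis), in IEL (red, upper point) and SP CD4+ T cells (blue, lower point), each point a difference between 2 arrays with no replicate. All 9 blue points lie above 0 and 7 of the 9 red points below it, and each red point lies to the left of its blue point.

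In IEL the same comparison gave another picture. The median of the members was −0.30 (−0.42 for the 7 with a brighter signal over 100). The median of all 4082 genes with such a signal was −0.12. Of the 9 members 7 were below 0 and 2 above, and 3 lay above the median of all genes. Of 11 housekeeping genes 8 were below 0, with a median of −0.13. Of the 7 members with a brighter signal over 100, 0 passed 2-fold upwards and 0 downwards with age, where 2.47% of all genes were higher and 3.85% lower. Slc2a3 had the largest difference, −0.88, with 140.0 in old IEL and 256.7 in young IEL, and 5.37% of genes had a lower one. Ldha had −0.76, Hk2 −0.61 and Pgk1 −0.42. Hk1, with −0.30, had a signal under 100. Gapdh, Pfkp, Aldoa and Slc2a1 had −0.17, −0.06, 0.13 and 0.16, within the spot error of 0.180, and quantile normalization turned Pfkp to 0.02. That normalization brings the median of all genes to −0.01 and the genes past 2-fold to 136 higher and 136 lower, beside 101 higher and 157 lower.

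Few other genes of the pathway were past 2-fold in IEL. None of 4 further glycolysis genes over the signal minimum was past 2-fold (0 higher and 0 lower), and the same held for 9 regulators and 6 pentose phosphate genes. Of 5 genes of lactate and pyruvate handling, 1 was lower. This was Pdha1, a subunit of the enzyme that feeds pyruvate into the mitochondrial citrate cycle, with 77.4 in old IEL and 158.5 in young IEL (−1.03), and it was under 2-fold with quantile normalization (−0.91) and with 75th percentile scaling (−0.99). Proliferation genes, by contrast, were lower in old IEL for 9 of the 10 over the signal minimum, with a median of −2.23 over 12 detected genes. The cyclin Ccna2 had 71.6 in old IEL and 422 in young IEL, and Tk1, a thymidine kinase of DNA synthesis, 33.0 in old IEL and 201.1 in young IEL. Summed epithelial markers were 381 in old IEL and 724 in young IEL. This gap came from Reg3b, an antimicrobial lectin of gut epithelium, with 15.1 in old IEL and 446 in young IEL. Of the 10 markers detected on both arrays 5 were above and 5 below 0, with a median of −0.03, and Fabp2, a fatty acid carrier of enterocytes, had 74.8 in old IEL and 10.9 in young IEL. The part of dividing or epithelial cells in the member differences was not tested.

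The age differences of IEL and SP rest on 4 separate arrays, and their difference compares the effect of age between the sites. All 9 members had a lower age difference in IEL than in SP, with a median of −0.73. Of the 4753 genes over the signal minimum in either comparison 65.1% did, and their median was −0.19. The 9 members include Hk1, which was under that minimum on every array. The size was largest for Hk2, −2.29, and Slc2a3, −1.75, and smaller for Slc2a1 (−0.89), Ldha (−0.78), Hk1 (−0.73), Pfkp (−0.70), Gapdh (−0.62), Pgk1 (−0.43) and Aldoa (−0.27). Only 1.22% of genes had a lower value than Hk2 and 2.80% than Slc2a3. The spot error of such a value is 0.255, and no test of it is possible with 1 array per group. There were 7 members above 0 in SP and below 0 in IEL, a pattern that 34.8% of all genes had. All 9 values stayed below 0 under each of the 8 processing alternatives tried.

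The comparison of IEL with SP asks how these T cells differ by site. In young mice all 9 members had a difference above 0, with a median of 0.30 (0.72 for the 7 over the signal minimum). The median of the 4458 genes over that minimum was −0.18. Of 7 members over the signal minimum, 3 were over 2-fold higher and 0 lower in IEL, where 8.05% of all genes were higher and 9.62% lower. Hk2 had 329.2 in young IEL and 15.0 in young SP, a 21.9-fold difference (4.45), and 0.85% of genes had a higher one. Pfkp was 2.28-fold higher (494.1 in young IEL and 216.8 in young SP, 1.19) and Slc2a3 2.08-fold (256.7 in young IEL and 123.7 in young SP, 1.05), which was under 2-fold with 16 added before log2 (0.97) and fell below the signal minimum with normexp. These 3 genes serve the entry, trapping and commitment of glucose. Other genes of these steps, with signals under 100, were mixed and all under 2-fold: Slc2a1 had 0.21, Hk1 0.17, Pfkl −0.39 and Pfkm −0.49. Of further transporters, also under 100, Slc2a8 had 0.65, Slc2a6 0.20, Slc2a4 −0.02, Slc2a2 −0.46 and Slc2a9 −0.88. Gapdh had 0.72, and Pgk1, Aldoa, Slc2a1, Ldha and Hk1 lay between 0.17 and 0.30. With normexp Slc2a1 and Hk1 were at −0.04 and −0.02.

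In old mice the median of the members was −0.13 (−0.06 for the 8 over the signal minimum), and 4 members were above and 5 below 0. The median of the 4513 genes over that minimum was −0.37. Of 8 members over the signal minimum, 1 was over 2-fold higher and 0 lower in IEL, where 4.65% of all genes were higher and 12.7% lower. This was Hk2, with 216.0 in old IEL and 48.3 in old SP (4.48-fold, 2.16), a difference exceeded by 1.79% of genes. With normexp it was 0.92. Pfkp had 0.48, and Gapdh and Aldoa had 0.10 and 0.02. Slc2a3, Slc2a1, Ldha, Hk1 and Pgk1 had −0.70, −0.68, −0.61, −0.57 and −0.13. The median of all genes lay among these values. With quantile normalization, which gave a median of −0.05 over all genes, they were −0.37, −0.30, −0.32, −0.11 and −0.02. The genes past 2-fold were then 329 higher and 291 lower, beside 210 higher and 574 lower. In young mice the same normalization gave 440 higher and 334 lower, beside 359 higher and 429 lower.

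**Figure D3:**
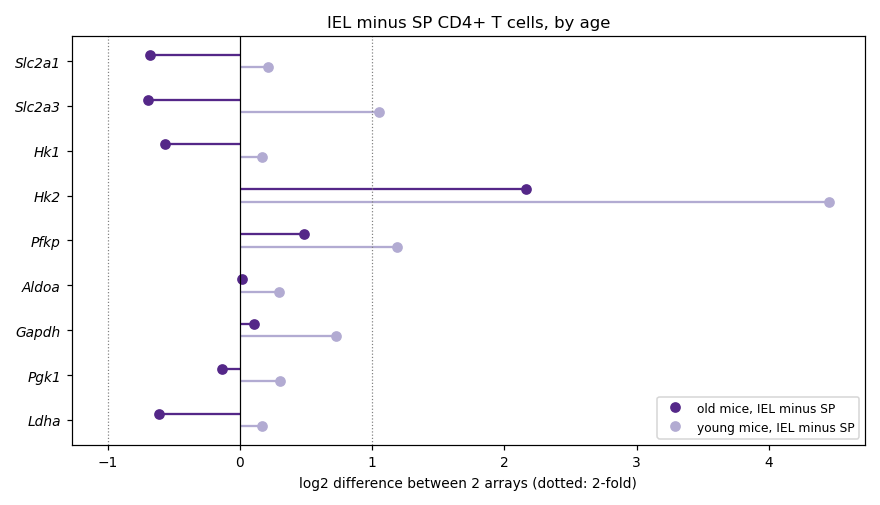
Log2 difference of IEL minus SP CD4+ T cells for each gene (x axis), in old mice (dark, upper point) and young mice (light, lower point), each a difference between 2 arrays with no replicate. Hk2 lies furthest to the right at both ages (2.16 in old and 4.45 in young mice), and every other old point lies at 0.48 or below.

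Proliferation genes, which dividing CD4+ T cells also express, and the summed epithelial markers differed between the sites as well. In young mice summed proliferation genes were 4620 in IEL and 1680 in SP, with 8 of 10 over 2-fold higher, and summed epithelial markers 724 in IEL and 211 in SP. Reg3b, below detection in SP, gave 446 of the young IEL sum. Among epithelial markers detected on both arrays, 5 were above and 2 below 0 in young mice (median 0.34). In old mice 5 were above and 4 below 0 (median 0.15), and 0 were called at either age. In old mice the sums were 2008 in IEL and 1801 in SP for proliferation, with 1 of 3 higher, and 381 in IEL and 251 in SP for epithelium. Pcna alone had 1282 in old IEL and 1115 in old SP, so the sums mostly follow bright genes. Over the 12 proliferation genes detected on both old arrays the median difference was 1.26, with 9 above 0 and 3 below. The part of dividing or epithelial cells in the site difference of Hk2 was not tested.

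**Figure D4:**
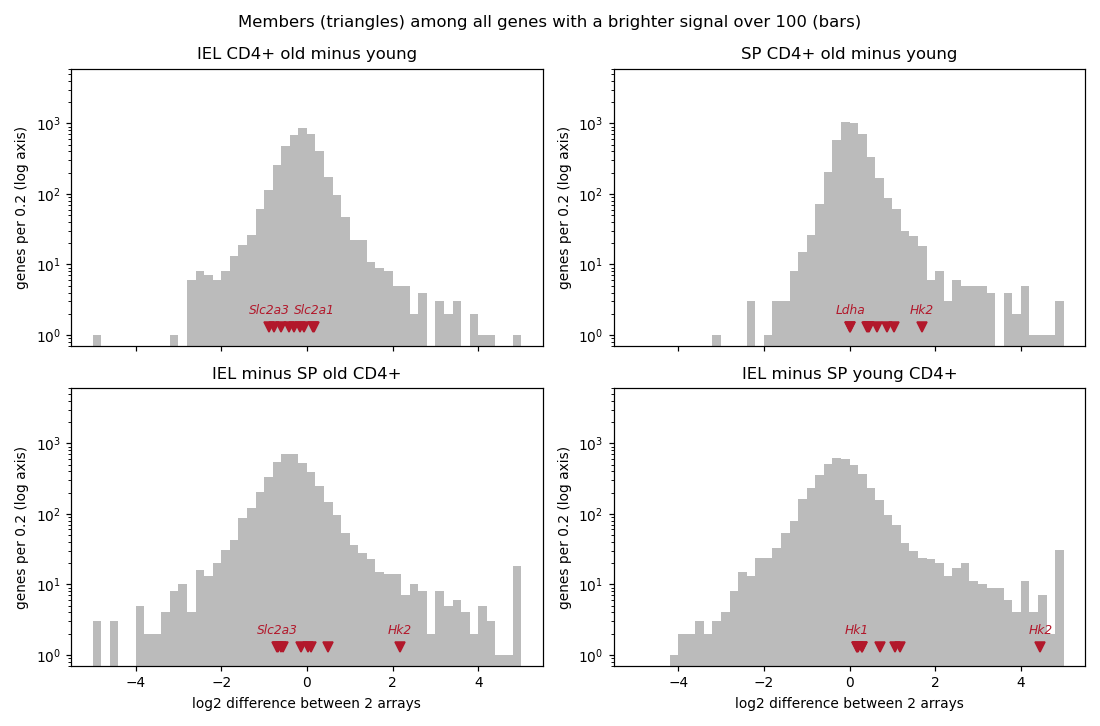
Number of genes per 0.2 of log2 difference (log y axis, grey bars, genes with a brighter signal over 100, end bars holding all values beyond them) in 4 comparisons, with the 9 members as red triangles and the outermost of them named. Hk2 lies in the upper tail for both site comparisons and for age in SP, and the other members lie in the body of each distribution or at its shoulder. Members with both signals under 100, such as Hk2 for age in SP, are drawn as triangles but are not among the genes in the bars.

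Some other genes of glycolysis had lower signals in IEL than in SP. Over all comparisons, normexp ended the call of 17 of the 21 differences of other pathway genes. A call given without a normexp value, here or elsewhere, therefore need not have held with it. Of all genes, 12.7% were over 2-fold lower in old mice and 9.62% in young mice. Ldhb, the dehydrogenase subunit that favours lactate oxidation, had 105.7 in old IEL and 465.5 in old SP (−2.14), and 185.3 in young IEL and 532.4 in young SP (−1.52), of which normexp left −0.48 in old mice. The muscle enolase Eno3, read by the 1 of its 2 probes that was detected throughout, had 86.2 in old IEL and 187.5 in old SP (−1.12), and 86.8 in young IEL and 222.1 in young SP (−1.36), which normexp turned to 0.31. Pkm, pyruvate kinase, had 59.6 in old IEL and 120.9 in old SP (−1.02), under 2-fold after quantile normalization (−0.65), whereas in young mice it had 110.4 in IEL and 76.1 in SP (0.54). In all, further glycolysis genes had 0 higher and 3 lower of 6 over the minimum in old mice and 0 higher and 2 lower of 5 in young mice. Over all genes of the list detected on both arrays the medians were −0.87 and −0.02, where those of all detected genes on the array were −0.46 and −0.28. In young mice 7 of the 15 detected genes of the list were above 0 and 8 below.

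Genes of lactate and pyruvate handling had 0 higher and 2 lower of 6 in old mice and 0 past 2-fold of 5 in young mice. The limit given above for calls without a normexp value applies to these genes too. Pdk1, a kinase that inhibits pyruvate dehydrogenase and so keeps pyruvate from the citrate cycle, had 32.5 in old IEL and 178.6 in old SP (−2.46) by the 1 of its 2 probes that was detected on all arrays. The same probe had 61.7 in young IEL and 315.7 in young SP. Pdk1 is not counted in young mice because its dim second probe, detected there on both arrays, brings the mean of the probes under the signal minimum (−2.28). Pdha1 had 77.4 in old IEL and 161.0 in old SP (−1.06), under 2-fold after quantile normalization (−0.69). Pck2, the mitochondrial enzyme that makes phosphoenolpyruvate, had 80.7 in old IEL and 213.8 in old SP (−1.41), and 48.6 in young IEL and 118.8 in young SP (−1.29), which normexp turned to 0.22 in young mice.

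Of the regulators over the minimum, 1 of 12 was over 2-fold higher and 1 lower in old mice, and 3 of 10 were higher and 2 lower in young mice. Slc3a2, the heavy chain of the amino acid transporter that T cells induce with activation, had 689 in old IEL and 305 in old SP (1.17), and 739 in young IEL and 171 in young SP (2.11). Egln3 had 78.1 in old IEL and 117.6 in old SP (−0.59), but 152.8 in young IEL and 17.5 in young SP (3.13). Irf4 had 677 in old IEL and 374 in old SP (0.85), and 935 in young IEL and 118 in young SP (2.98). Txnip, which lowers glucose uptake and is itself induced by glucose, had 3621 in old IEL and 6320 in old SP (−0.80), and 2394 in young IEL and 10354 in young SP (−2.11). Myc, which drives glycolytic genes in activated T cells, had 28.1 in old IEL and 100.5 in old SP (−1.84, its brighter signal barely over the minimum and under it with either other scaling), and 45.8 in young IEL and 105.8 in young SP (−1.21). With normexp the calls of Egln3 and Myc, and that of Slc3a2 in old mice, were lost. Pentose phosphate genes had 0 past 2-fold at either age. The site and age comparisons share arrays, so their values are not independent.

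**Figure D5:**
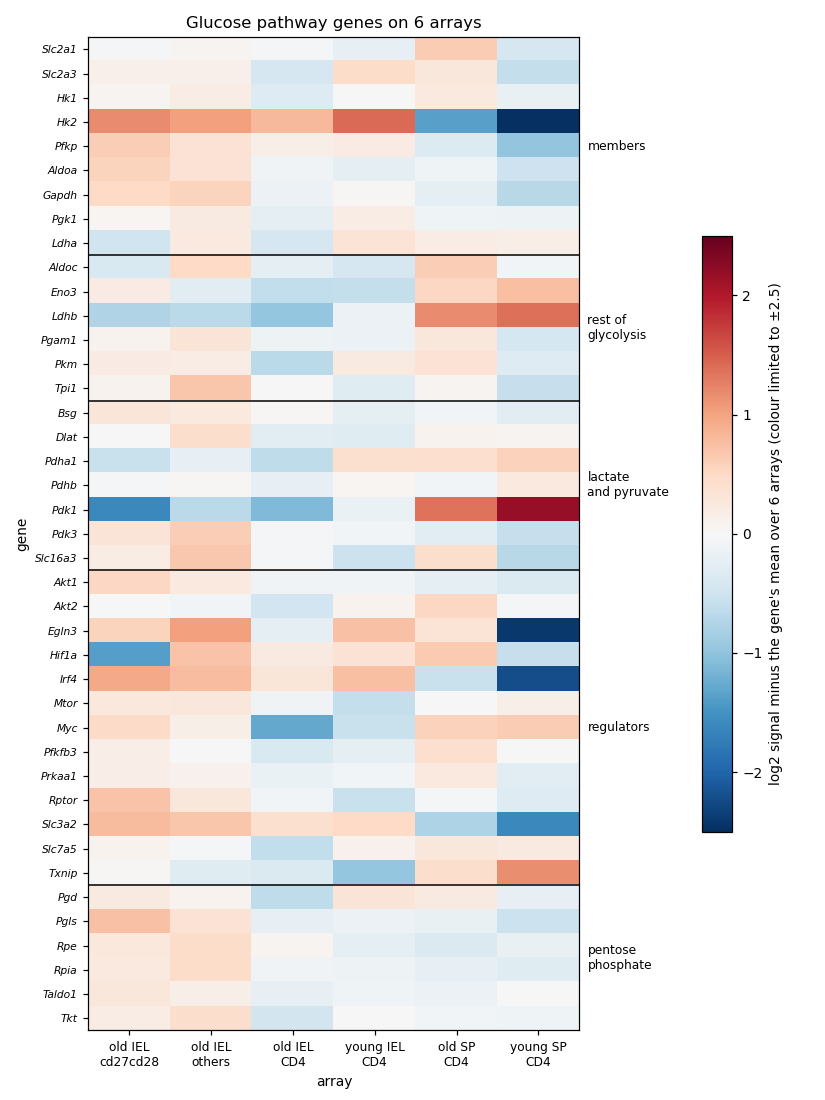
Log2 signal minus the mean of the gene over the 6 arrays (colour, red above and blue below, limited to ±2.5) for the 9 members and the genes of 4 other lists that were detected on all arrays and over 100 on at least 1. Hk2, Irf4, Egln3 and Slc3a2 are darkest blue in young SP, whereas Pdk1, Ldhb and Txnip are darkest red there.

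In the old IEL fractions, Cd28, a costimulatory receptor that the label names, had 851 on the cd27cd28 array and 4608 on the others array. The members differed little between them, with a median of −0.05 (−0.01 for the 7 over the signal minimum). The median of the 4665 genes over that minimum was 0.11. Of 7 members over the signal minimum, 0 were over 2-fold higher and 0 lower, where 0.472% of all genes were higher and 2.68% lower. The largest difference was that of Ldha, −0.74, with 221.1 on the cd27cd28 array and 370.1 on others, and 4.18% of genes had a lower one. The next were Pfkp with 0.26, Aldoa with 0.18, Pgk1 with −0.17 and Hk2 with 0.15, of which those of Pfkp and, barely, Aldoa exceeded the spot error. Hif1a was the 1 regulator of 11 past 2-fold, with 79.7 on the cd27cd28 array and 343 on others (−2.11). Epithelial genes were detected on both arrays for 11 of 12 markers, and 3 of 6 over the minimum were lower, such as Krt8, a keratin of simple epithelium, with 6.89 on the cd27cd28 array and 375 on others. Myeloid markers summed to 191 on the cd27cd28 array and 898 on others, with Lyz2, the lysozyme of macrophages and Paneth cells, at 12.2 on the cd27cd28 array and 711 on others (−5.87). Proliferation genes summed to 2791 on the cd27cd28 array and 4199 on others, and 12 of 14 were below 0, with a median of −0.54 and 1 of 8 over 2-fold lower, Ccna2 (−1.24). Their part in these differences was not tested.

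Set against old IEL CD4+ T cells as sorted, both fractions were brighter by the median of all genes. That median, taken over genes past the signal minimum, was 0.56 for cd27cd28 and 0.45 for others. The median of all 9 members was 0.39 and 0.45, and that of the 7 over the minimum 0.47 and 0.45. After quantile normalization the members had −0.10 and −0.02. These 2 comparisons share the old IEL array.

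Genes with the most similar profile over the 6 arrays were sought for the 6 members that spanned over 2-fold, among 5073 genes, by the root mean square difference of log2 signals centred on their mean, with predicted genes passed over. For Hk2 they were Bcl2a1c (0.15), Dtx4 (0.19) and Il12rb1 (0.27). Bcl2a1c, a relative of the survival factor Bcl2, had 4967 in old IEL, 5919 in young IEL, 1147 in old SP and 346 in young SP. For Slc2a3 they were Gbp2 (0.09), Tap2 (0.13) and Map2k3 (0.14), and Gbp2, an interferon-induced GTPase, had 299 in old IEL, 639 in young IEL, 494 in old SP and 302 in young SP. For Slc2a1 they were Socs1 (0.08), Coq8b (0.11) and Egr1 (0.14), of which Socs1, a brake on cytokine signalling, had 686 in old IEL, 534 in young IEL, 914 in old SP and 466 in young SP. For Pfkp they were Cd79b (0.09), Hspa5 (0.11) and Tnfrsf1b (0.11), for Aldoa Sdf2, Gabarap and Mettl21a (each 0.06), and for Gapdh Msmo1 (0.07), Stx12 (0.08) and Atp6v0d1 (0.10). These likenesses describe 6 arrays only.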

How the data were processed

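RNA of the sorted cells was amplified, labelled with Cy5 and hybridised to Toray 3D-Gene mouse 24k arrays. The scanner files deposited by the authors hold intensity of the spot median and local background, not background-subtracted, and their value table holds normalised intensity with a median of 25 per array. Signals were recomputed from the scanner files: a trimmed mean of 384 blank spots (5% dropped from either side) was taken off the spot median, probes over 2 SD of the blanks counted as detected, and each array was scaled to a median of 25. They differed from the value table by a median of 0.0037 to 0.0097 on the log2 scale, with 18 to 54 probes on an array counted as detected by only 1 of the sources. Undetected probes were left out, and genes with several probes took their mean log2 signal. All members with their levels were named. From each other list of pathway genes up to 4 genes past 2-fold with the largest difference per comparison were named. Of the proliferation, housekeeping and marker genes past 2-fold, not all were named. Others (Cd4, Cd3e, Cd8a, Cd8b1, Cd28, Pgam1, Tpi1, Pfkl, Pfkm, the further transporters, Pcna, the copies, Fabp2 and undetected markers) were chosen after their values were seen. The members and lists were chosen with earlier results of these data known. Names come from the array design; 2783 probes have no named gene here. The array files name no genome build, and promoters come from RefSeq on GRCm38.p6. Alternatives were quantile normalization, 75th percentile scaling, normexp with an offset of 50 (limma 3.58.1, R 4.3.3), the value table, 16 added before log2, a signal minimum of 0 or 200, and the brightest probe per gene. The steps were tested on simulated data, with changes well past 2-fold in genes above the signal minimum. Calls near either threshold were not covered by it. The steps were run in Python 3.11.15 with numpy 2.4.6 and pandas 2.3.3. The number of arrays, 1 per group, limits the precision.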

Additional observations from a re-analysis of the deposited data

Results flagged for a closer look

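For 2 members the age difference had opposite signs at the sites, with both age differences over 2 times the spot error. The share of all genes past this rule was not computed. Without the limit on size, 34.8% of 4753 genes were above 0 in SP and below 0 in IEL. The age difference of Hk2 was −0.61 in IEL and 1.68 in SP, and the first minus the second was −2.29. Its SP signals, 48.3 in old and 15.0 in young mice, were both under the signal minimum. For Slc2a3 the age difference was −0.88 in IEL and 0.88 in SP, which gives −1.75. The difference between the sites was not tested, since each group has 1 array.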

How the results depend on the processing

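The count of members over 2-fold higher in old SP, 1, was 0 after quantile normalization, with normexp, with 16 added before log2 and with a signal minimum of 200, and 2 with no signal minimum, which added Hk2. With normexp the median of the members was 0.26 for age in SP, −0.75 for age in IEL and 1.04 for site in young mice, and 0 members were over 2-fold higher in old IEL than in old SP. The median difference of the age differences was −0.54 after quantile normalization. Of 63 member differences, 12 changed sign after quantile normalization and 15 with normexp, and 0 did under the other 6 alternatives. Normexp ended the call of Slc2a1 for age in SP (0.13) and of Hk2 for site in old mice (0.92), left Slc2a3 for site in young mice at 1.54 but under the signal minimum (0.97 with 16 added), and put Pgk1 (1.46) and Aldoa (1.04) over 2-fold higher in young IEL than in young SP. It turned Hif1a for age in SP (−0.53) and Eno3 (0.31) and Pck2 (0.22) for site in young mice, and ended the call of 17 of the 21 differences of other pathway genes, against 5 after quantile normalization, 4 with 75th percentile scaling, 5 with 16 added and 10 with a signal minimum of 200. Among all genes it left 1328 over the minimum for age in SP, with 210 higher and 281 lower, beside 193 and 34. For age in IEL it gave 133 higher and 456 lower, for site in young mice 500 higher and 174 lower, for site in old mice 242 higher and 255 lower, and for cd27cd28 against others 174 higher and 98 lower, beside 22 and 125. The cause was not tested. Across the spots of an array, log2 spot signal and log2 local background correlated with a Pearson r of 0.959 to 0.983. The settings for the other pathway genes and for single members in the difference of age differences were chosen after seeing the data. No paired analysis was possible because each group has 1 array, and for the same reason no replicate could be left out.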
